A study of Mus musculus with 10 samples.

Results

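Esrrb is the mouse gene of estrogen-related receptor beta, and its locus was examined here for peaks of HA-tagged SOX15 and HA-tagged SOX2 in mouse embryonic stem cells. The locus was taken as the gene on mm10 (chr12:86361117-86521628, gene ID 26380) plus 100 kb on either side, and every peak with its summit in that 361 kb window was a member. Of the 8819 peaks in the 5 deposited peak lists, 13 were members. Per the study's design text each factor bore its HA tag through a knock-in, and all cells were kept in 2i/LIF, which maintains naive pluripotency, and crosslinked with 1% formaldehyde for 5 min before ChIP-seq. The lists came from 3 SOX15-HA ChIP libraries, called here SOX15 replicates 1, 2 and 3, and from 2 SOX2-HA ChIP libraries, SOX2 replicates 1 and 2. The 5 input libraries were not analysed here, and no untagged control, parental line or strain is named in the labels. Whether the replicates are cultures of their own is not stated, so p-values measure the spread between these libraries, which may be technical.

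ESRRB is an orphan nuclear receptor that binds DNA without a known natural hormone. In mouse embryonic stem cells it belongs to the circuit of transcription factors that keeps the naive state, together with NANOG, KLF4, TFCP2L1, OCT4 and SOX2, and its gene is repressed by TCF7L1, a repressor that the GSK3 inhibitor of 2i relieves. SOX2 is an HMG-box factor that binds DNA with OCT4 at many enhancers of this circuit, and SOX15 is a related HMG-box factor whose sites in these cells the study set out to map.

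RefSeq annotation on GRCm38.p6 (the same chromosome coordinates as mm10) placed Esrrb on the plus strand with 2 start sites, at 86361117 and 86421644 on chromosome 12. They lie 60.5 kb apart. Neither had a peak of SOX15 or SOX2 within 1 kb. The nearest summit lay 105 kb from the first start site and 44.7 kb from the second, in either case that of a SOX2 replicate 2 peak with a fold of 5.73. For comparison, 0.758% of the 17274 protein-coding genes with a listed start site had a SOX15 summit of any library within 1 kb of a start, and 1.22% had a SOX2 summit. The promoters are shown because they mark where along the gene no peak was called. Each runs 5′ to 3′ on the plus strand, from 250 bases before to 50 bases after the start site, and is credited to RefSeq, build GRCm38.p6. Capitals mark the matches found.

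First start site (chr12:86360867-86361166): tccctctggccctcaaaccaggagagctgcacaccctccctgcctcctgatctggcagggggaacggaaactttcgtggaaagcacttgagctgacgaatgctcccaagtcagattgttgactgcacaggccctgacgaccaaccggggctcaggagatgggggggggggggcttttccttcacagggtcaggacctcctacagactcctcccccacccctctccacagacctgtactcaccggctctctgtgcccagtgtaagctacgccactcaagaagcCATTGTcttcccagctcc
Second start site (chr12:86421394-86421693): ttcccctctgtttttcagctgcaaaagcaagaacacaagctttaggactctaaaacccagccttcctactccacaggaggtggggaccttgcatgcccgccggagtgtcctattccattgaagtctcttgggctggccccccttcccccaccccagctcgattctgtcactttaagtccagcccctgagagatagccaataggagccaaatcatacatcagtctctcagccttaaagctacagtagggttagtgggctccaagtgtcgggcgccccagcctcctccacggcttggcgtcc

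Both strands were searched for the SOX cores ACAAAG and ACAATG, for ATGCAAA, a part of the octamer that OCT4 reads, and for AAGGTCA, a part of the sites of nuclear receptors. The single match was ACAATG on the minus strand of the first promoter, beginning 33 bases into the transcript and printed in capitals as its reverse complement. Among 32817 promoter windows of 300 bases, 12.6% held ACAATG, 18.7% ACAAAG, 4.63% ATGCAAA and 4.72% AAGGTCA on either strand. These matches are descriptions of the letters in these windows. The DNA under the peaks themselves was not used here, because no genome sequence was at hand.

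The 13 peaks formed 7 sites when peaks that overlapped by at least 1 bp were merged, and 6 of the 7 lay inside the gene. Of the 7 sites 4 had a SOX15 peak and 5 had a SOX2 peak, with 2 in common. That left 2 sites with SOX15 alone and 3 with SOX2 alone. In the whole series, 282 of 5777 sites had peaks of both factors, with 963 SOX15 sites and 5096 SOX2 sites. At least 2 SOX15 libraries called 199 of the 963, and 1 of the 4 at Esrrb. Both SOX2 libraries called 2370 of the 5096, and 3 of the 5 at Esrrb. The sites at Esrrb were not spread along the gene. Sites 3, 4, 5 and 6, counted in the direction of transcription, held 10 of the 13 peaks and spanned 6231 bp in the 3′ part of the gene, 138 to 144 kb from the first start site. The first 105 kb of the gene and the 100 kb before it had no peak in any list.

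**Figure D1:**
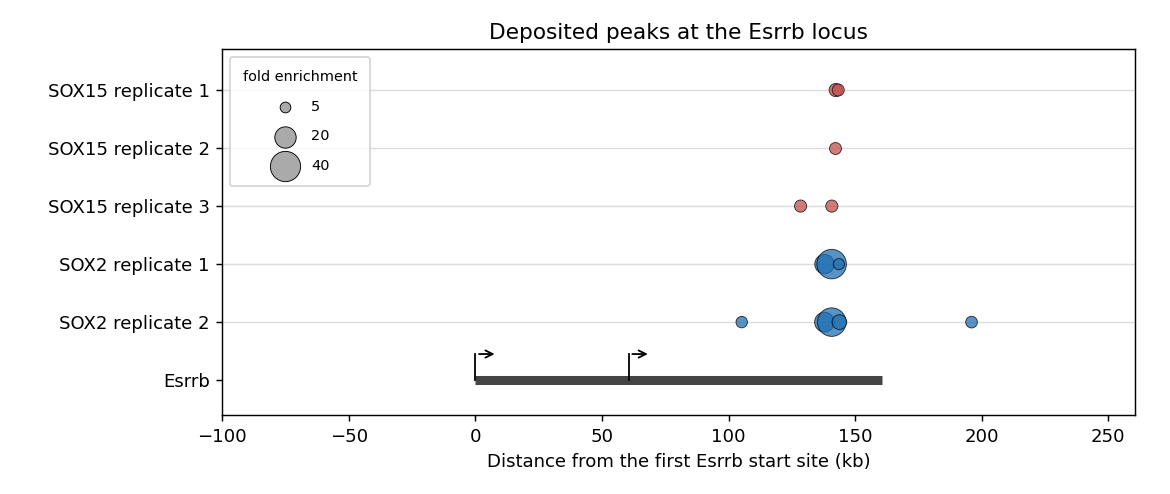
Peaks at the Esrrb locus by library (rows, SOX15 above SOX2) against distance from the first start site in kb, with the area of a circle proportional to the authors' fold enrichment; the bar is the gene and the arrows its 2 start sites. The peaks of all 5 libraries gather 138 to 144 kb from the first start site, and SOX15 replicate 3 and SOX2 replicate 2 have further peaks outside that cluster.

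The fold enrichment of a peak is the authors' own value over their caller's background, and it is comparable only within 1 list. For that reason each value is given with the percentage of its own list that had a lower fold. A library with no peak at a site has no value there, since the lists hold no signal below the caller's threshold.

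Site 1 (chr12:86466148-86466474) was the first along the gene, 105 kb from the first start site and 44.7 kb from the second. It was called in SOX2 replicate 2 alone, with a fold of 5.73, higher than 13.2% of that list. In that list 50.8% of sites had no SOX2 replicate 1 peak, so a site of this kind was common in it.

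Site 2 (chr12:86489384-86489683) was called in SOX15 replicate 3 alone, with a fold of 6.47, higher than 51.5% of that list. In that list 40.2% of sites also had a peak of another SOX15 library, so a site without one was common in it. No SOX2 library had a peak at site 2. The nearest SOX2 site began 9106 bp further on.

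Site 3 (chr12:86498790-86499202) opened the cluster and was a SOX2 site without SOX15. Its fold was 16.6 and 17.0 in SOX2 replicates 1 and 2, higher than 88.8% and 89.1% of the peaks of those lists. The 2 summits lay 2 bp apart, the closest placement between libraries at the locus. No SOX15 library had a peak at this site, although its folds were the second highest of the locus.

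Site 4 (chr12:86501394-86502158) was the strongest SOX2 site of the locus. SOX15 replicate 3 had a fold of 6.43 there, higher than 50.1% of its list. SOX2 replicate 1 had a fold of 38.1, which ranked 12 of 2676 peaks, and SOX2 replicate 2 had 35.6, which ranked 40 of 4817. The SOX15 summit lay 69 bp from the SOX2 replicate 1 summit and 40 bp from that of replicate 2, and the SOX15 peak lay wholly inside both SOX2 peaks. SOX15 replicates 1 and 2 had no peak at this site, so the SOX15 call rests on 1 library.

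Site 5 (chr12:86502708-86503656) was the site called in more than 1 SOX15 library, and it had no SOX2 peak. The fold was 7.67 in SOX15 replicate 1 and 6.27 in SOX15 replicate 2, higher than 44.2% and 67.1% of their lists. SOX15 replicate 3 had no peak there. The replicate 1 peak was 949 bp wide, against a median of 486 bp in its list, and held the whole of the 216 bp replicate 2 peak. Their summits lay 182 bp apart, at 1617 and 1435 bp past the SOX2 replicate 1 summit of site 4. The gap to site 4 was 549 bp and the gap to site 6 was 643 bp, so this SOX15 site stood between SOX2 sites without touching either.

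Site 6 (chr12:86504300-86505020) closed the cluster. SOX15 replicate 1 had a fold of 6.40, higher than 31.3% of its list. The SOX2 folds were 5.44 in replicate 1 and 9.51 in replicate 2, higher than 8.22% and 61.6% of their lists. The peaks were joined less closely than at site 4. The SOX15 summit lay 260 and 475 bp before the SOX2 summits of replicates 1 and 2. It overlapped the SOX2 replicate 2 peak by 206 bp (73.8% of the SOX15 peak) and did not overlap that of replicate 1. The SOX2 summits themselves lay 215 bp apart.

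Site 7 (chr12:86556943-86557264) was the one site outside the gene, 35.5 kb past its 3′ end. It was called in SOX2 replicate 2 alone, with a fold of 5.99, higher than 16.9% of that list.

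**Figure D2:**
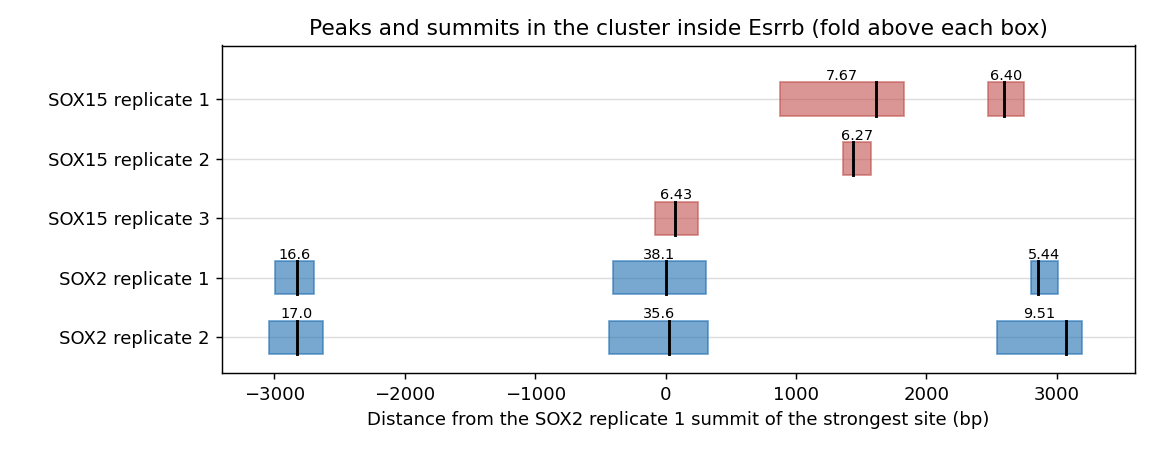
Extent of each peak (box), its summit (black line) and the authors' fold (number) for the 4 sites of the cluster inside Esrrb, by library, against distance in bp from the SOX2 replicate 1 summit of the strongest site. SOX15 replicate 3 sits on the strongest SOX2 site, while the peaks of SOX15 replicates 1 and 2 lie 1435 to 2599 bp further on, between and partly over SOX2 peaks.

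The SOX15 peaks of the locus stood in the middle of their own lists. Each of the 5 had a fold higher than 31.3% to 67.1% of its list, while the 8 SOX2 peaks ran from higher than 8.22% to higher than 99.6% of theirs. SOX2 therefore had both a site near the top of its lists and sites near their lower end within the same gene. The 2 SOX15 peaks of replicate 3 and the 3 of replicates 1 and 2 fell on different sites: no site was shared between replicate 3 and either of the other SOX15 libraries. In the whole list of replicate 3, 40.2% of sites also had a peak of another SOX15 library, so unshared sites were common in it. The share was 80.6% in replicate 1 and 28.1% in replicate 2. In the whole list of replicate 3, 43.8% of sites lay on a SOX2 site of both libraries, against 36.3% in replicate 1 and 11.5% in replicate 2. Counting a SOX2 peak of either library, the share was 57.9% in replicate 3, 63.2% in replicate 1 and 21.4% in replicate 2.

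The counts of peaks at Esrrb were 2, 1 and 2 in SOX15 replicates 1, 2 and 3, and 3 and 5 in SOX2 replicates 1 and 2. A list of 1 factor and a list of the other differ in length, so each count was also divided by the length of its list. The locus held 0.922%, 0.149% and 0.458% of the peaks in SOX15 replicates 1, 2 and 3 (mean 0.509 ± 0.389, SD, n = 3), and 0.112% and 0.104% in SOX2 replicates 1 and 2 (mean 0.108 ± 0.00588, SD, n = 2). The 2 groups did not overlap, but the lengths of the lists favour this. In SOX15 replicate 2, the longest SOX15 list, 1 peak already gave 0.149%, above both SOX2 shares. How many other genes show such a separation was not counted. The difference of 0.401 percentage points gave p = 0.2 in a two-sided exact permutation test over libraries, which is the smallest p that 3 against 2 allows. Without SOX15 replicate 1 the difference was 0.195 percentage points. The SOX15 lists held 217, 672 and 437 peaks against 2676 and 4817 in the SOX2 lists, so a single peak weighs more in a SOX15 share.

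Set against all 21631 protein-coding genes on the autosomes and X, Esrrb was among the genes with many sites. A peak of SOX15 replicates 1, 2 and 3 lay in or within 100 kb of 3.5%, 9.17% and 6.65% of genes, and a peak of SOX2 replicates 1 and 2 of 24.3% and 37.1%. As many peaks as at Esrrb or more were found at 1.06% of genes for its 2 peaks of SOX15 replicate 1 and at 1.96% for its 2 of SOX15 replicate 3, and at 2.33% for its 3 of SOX2 replicate 1 and 1.06% for its 5 of SOX2 replicate 2. Esrrb had a peak of each of the 5 libraries, as had 1.78% of genes. A site of any library was found at 43.1% of genes, and the 7 sites of Esrrb were reached or passed by 175 genes, itself included (0.809%). For its 4 SOX15 sites the share was 0.943%, for its 5 SOX2 sites 1.32% and for its 2 sites of both factors 1.05%. SOX2 sites of both libraries, 3 at Esrrb, were as many or more at 1.54% of genes, and at least 1 SOX15 site of 2 or more libraries was found at 3.43%. A long gene has a wide window. Per 100 kb of window Esrrb had 1.94 sites, against a mean of 0.332 over all genes, and 1.85% of genes had at least as many.

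**Figure D3:**
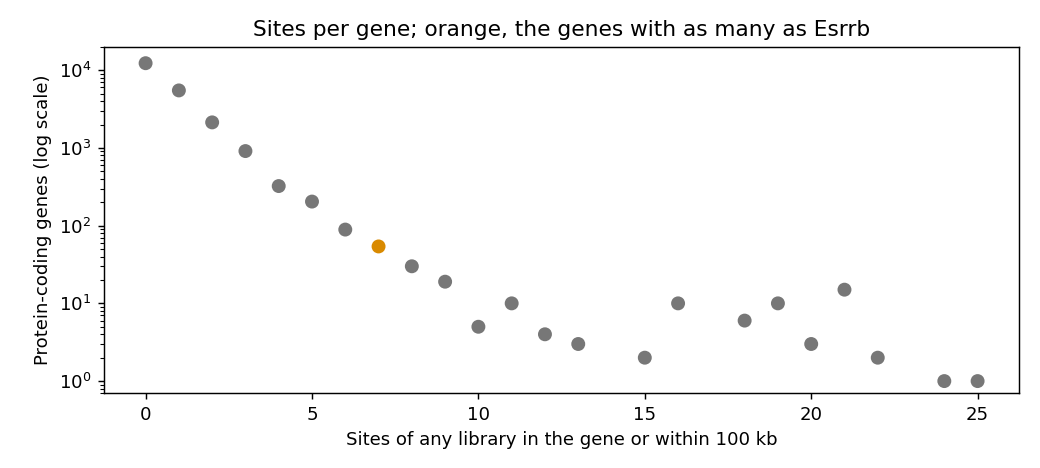
Number of protein-coding genes (log scale) by the number of sites of any library in the gene or within 100 kb. The orange point is the 54 genes with 7 sites, Esrrb among them; 12305 genes had none.

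The arrangement of the cluster was then compared with the whole series, by a description chosen after the locus had been seen. Sites of all libraries were chained where neighbours lay at most 3 kb apart, which gave 5403 chains. Of these 20 (0.37%) held 4 or more sites. Of those 20 chains, 7 held 2 or more SOX2 sites of both libraries. A SOX15 site of at least 2 libraries was also present in 6 of the 7, so this further condition removed few chains. Esrrb had 1 of these 6 chains, and the other 5 lay on chromosome 13 at the histone genes H4c12, H1f5, H2ac12, H2ac8 and H1f2. Of the 199 SOX15 sites of at least 2 libraries in the series, 68 had no SOX2 peak, and 8 of those (11.8%) had a SOX2 site of both libraries within 3 kb. Site 5 of Esrrb was the one of the 68 with such a site on either side. To be in the 6 chains or the flanked sites, Esrrb needs the peaks of SOX15 replicates 1 and 2 at site 5. Esrrb therefore dropped out of each count when either library was left out. With a chain gap of 2 kb there were 2 chains and Esrrb was not among them, since 2191 bp separate its sites 3 and 4.

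Esrrb was next set beside the genes it works with. A list of 20 genes of the pluripotency circuit was used, all of which were found in the gene table. A SOX15 site lay in or within 100 kb of 9 of the 20, against 12.8% of all protein-coding genes, and a SOX2 site of 17 of the 20, against 38.6%. A site of both factors was present at 6 of the 20, against 4.33%. A SOX15 site of at least 2 libraries was present at 3 (Esrrb, Tfcp2l1 and Zfp42), against 3.43% of genes, and a SOX2 site of both libraries at 16, against 22.3%. The median member had 0 SOX15 sites and 3 SOX2 sites, and the median gene of the table had 0 of each. Esrrb is itself among the 20. The windows of Nanog and Dppa3 overlap, so a site in both windows was counted for both genes. These members were chosen with results of these data known, and the counts are a description.

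In SOX2 replicate 1 the strongest peak at Esrrb, with a fold of 38.1, was above that of every other list member. Sox2 itself followed with 33.3, and Pou5f1, the gene of OCT4, with 30.0. In SOX2 replicate 2 Pou5f1 led with 47.0, and Esrrb (35.6) and Sox2 (35.3) came next and close together. In SOX15 replicate 1 peaks were called at 3 members, with best folds of 11.1 at Zfp42, 7.67 at Esrrb and 6.48 at Tfcp2l1. Tfcp2l1 encodes a transcription factor of the naive state, and Zfp42, also called Rex1, is a widely used marker of it. In SOX15 replicate 2 the best folds of those 3 genes were 7.27 at Zfp42, 6.90 at Tfcp2l1 and 6.27 at Esrrb. In SOX15 replicate 3 Esrrb had the lowest best fold of the 6 members with a peak, 6.47, while Pou5f1 had the highest, 11.8. Nanog and Dppa3, whose windows overlap, were both among the 6 and had the same best fold, 6.58.

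The members differed in how the sites of the factors were combined. Zfp42 had 8 sites, with SOX15 at 6 and SOX2 at 7, and 5 of these in common. Nanog had 7 sites, as had its neighbour Dppa3, with SOX15 at 3 and SOX2 at 4 and none in common. Esrrb lay between these patterns, with 2 shared sites. Much of this contrast rests on calls of 1 library. The 3 SOX15 sites at Nanog and at Dppa3 were called in SOX15 replicate 3 alone. At Zfp42, 1 of the 7 SOX2 sites was called in both SOX2 libraries, and 1 of the 6 SOX15 sites in at least 2 SOX15 libraries. Each of the 2 shared sites at Esrrb had a peak of 1 SOX15 library. Klf4, Klf5, Sox2, Prdm14, Gbx2, Nr5a2, Fgf4, Nr0b1 and Sall4 had SOX2 sites and no SOX15 site, Tdgf1 had 1 SOX15 site and no SOX2 site, and Stat3 and Tcl1 had no peak. Of the 15 members with a listed start site, 2 had a SOX15 summit (Klf2 and Tfcp2l1) and 5 a SOX2 summit (Klf2, Nanog, Nr5a2, Pou5f1 and Tfcp2l1) within 1 kb of a start, against 0.758% and 1.22% of the 17274 genes with a listed start site. Esrrb was in neither set. The SOX15 peak at Klf2 was called in SOX15 replicate 2 alone, with a fold of 3.28, higher than 8.18% of that list.

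**Figure D4:**
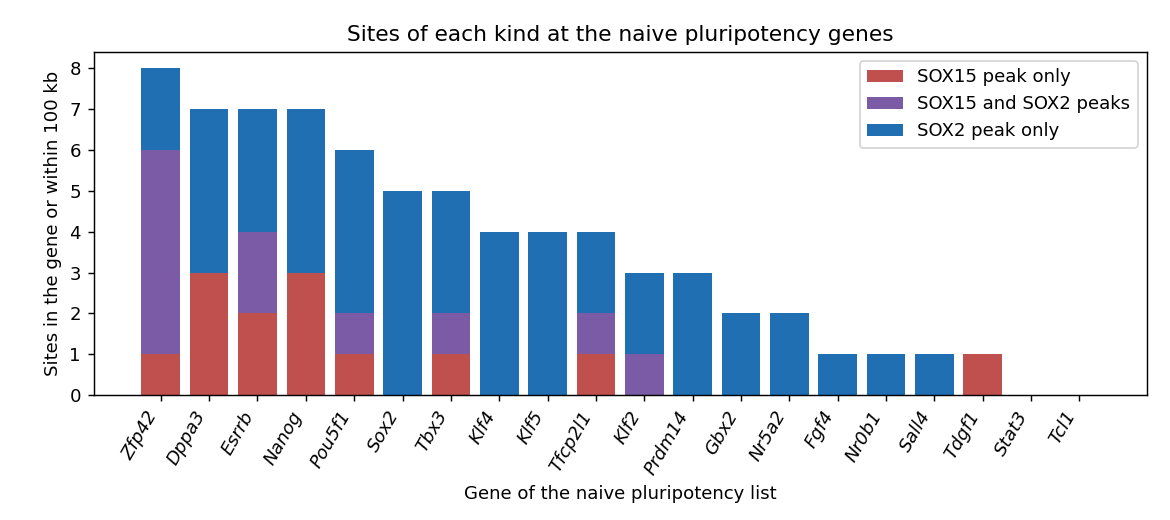
Sites in the gene or within 100 kb for each of the 20 genes of the pluripotency list, split into sites with a SOX15 peak only, with peaks of both factors and with a SOX2 peak only. Esrrb has 7 sites (2 SOX15 only, 2 of both and 3 SOX2 only); Nanog and Dppa3 are neighbours, so their windows overlap.

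The other estrogen-related receptor genes, Esrra and Esrrg, had no peak in any of the 5 lists within 100 kb, nor had Ppargc1a, a coactivator of these receptors. Among 8 genes of the receptor family and its cofactors, Esrrb included, 2 had a SOX15 site and 5 a SOX2 site, with Esrrb among both, against 12.8% and 38.6% of all protein-coding genes. Ncoa3, whose product is a coactivator of ESRRB in mouse embryonic stem cells, had a SOX15 replicate 1 peak with a fold of 8.43 and 4 SOX2 sites, all in SOX2 replicate 2 alone, with a best fold of 10.2. Kdm1a, the gene of the histone demethylase LSD1, had 2 SOX2 sites, 1 of them in both libraries, with best folds of 11.5 and 26.4 in SOX2 replicates 1 and 2. Nrip1, a nuclear receptor corepressor gene, also had 2 SOX2 sites, and Nr0b2 had 1 in SOX2 replicate 2.

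The genes with counts of peaks most like those of Esrrb were sought among all protein-coding genes by Bray-Curtis dissimilarity over the 5 libraries, where 0 means equal counts. No other gene had the same 5 counts. Taken in order of dissimilarity, and passing over any gene whose window overlapped that of Esrrb or of a gene already taken, the first 5 were Armc9 and Fnbp1 (0.0769 each), Chmp2a (0.0833), Pla2g1b (0.103) and Auts2 (0.13). Counted without that restriction, 24 genes other than Esrrb had a dissimilarity no greater than that of Auts2. Armc9 had 2, 1 and 2 SOX15 peaks and 4 and 4 SOX2 peaks, with no site in common between the factors, and its best SOX2 folds were 10.4 and 13.9. Fnbp1 had 1, 1 and 3 SOX15 peaks and 3 and 5 SOX2 peaks, and SOX2 folds up to 21.9 and 32.4. Each of the 5 had a lower best SOX2 fold in either replicate than Esrrb. The best SOX15 folds were not ordered in this way. In SOX15 replicate 3 they were 49.1 at Pla2g1b, 15.7 at Fnbp1 and 7.35 at Chmp2a, against 6.47 at Esrrb. These genes were also above Esrrb in SOX15 replicate 2, and Pla2g1b alone was above it in SOX15 replicate 1. Armc9 and Auts2 were below Esrrb in each SOX15 replicate in which they had a peak. Auts2 reached its counts over a window of 1310 kb. The genes with the most SOX2 sites, taken without overlapping windows, were H2ac6 (17), H2ac22 (14), Etl4 (12), Cenpv (9) and Clybl (9), against 5 at Esrrb. H2ac6 and H2ac22 are histone genes, with 20 and 15 SOX15 sites.

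The neighbourhood of Esrrb was otherwise empty of peaks. The window also overlapped Gpatch2l (chr12:86241795-86294657), the one other protein-coding gene in it, and the noncoding genes Gm32666 and Gm40483, the last of which overlaps the first Esrrb start site. None of these had a peak within it. Site 7 lay between the pseudogene Gm52007 (chr12:86547879-86553049) and Vash1, which begins at 86678700, outside the window. The nearest peaks beyond the window were SOX2 peaks 608 kb before the gene and 249 kb after it, with folds of 6.28 and 11.4 before and 7.72 and 18.0 after in SOX2 replicates 1 and 2. The nearest SOX15 peak outside lay 362 kb after the gene, in SOX15 replicate 2. Site 7, at 35.5 kb from the gene, was the member nearest to the limit of 100 kb, so no peak lay close to that limit on either side. The gene table used here gives no exons, and sites 1 to 6 are therefore stated only as inside the gene.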

How the data were processed

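Peak lists of 5 ChIP libraries were used. Per the submitters' processing notes, Bowtie2, MACS2 and deepTools were used with build mm10; versions, settings and the use of inputs as control are not given in the sources used here. Each list belongs to 1 sample. The values deposited per peak are a fold enrichment (a ratio on a linear scale), its −log10 p-value and −log10 q-value, the summit offset and a whole-number score that equals 10 times the −log10 q-value, rounded down. The smallest −log10 q-value was 2.76, 2.03 and 1.31 in SOX15 replicates 1, 2 and 3 and 2.10 and 2.20 in SOX2 replicates 1 and 2. Read counts are not part of the lists, hence the depth cannot be stated, and where no peak is listed there may be signal under the threshold.

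Positions were converted to 1-based coordinates, and the summit was the start plus the offset. Sample titles gave the groups and the replicate numbers. Peaks of the 5 libraries that shared at least 1 bp were merged into a site, and a site was given to a library with a peak in it. Merging was tested on simulated peaks that overlapped widely at sites far apart. Partial overlaps and close neighbouring sites, as in the cluster at Esrrb, were not simulated. Genes and start sites came from RefSeq GRCm38.p6; start sites on chromosome 18 were not used here. Shares of a list were compared with a two-sided exact permutation test over libraries. Other values are descriptions. Alternatives were the window, the placing and merging of peaks, the −log10 q-value limit and leaving out each library. Named genes were Esrrb, protein-coding genes in its window, the members of the gene lists, the 5 genes most like it in counts of peaks and the 5 with the most SOX2 sites; genes at chains of sites were named after their values were seen. The members and lists were chosen with earlier results of these data known. The planned comparison of protein sequences was not run. Scripts ran in Python 3.11.15 with scipy 1.17.1, numpy 2.4.6, pandas 2.3.3 and matplotlib 3.10.9.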

Additional observations from a re-analysis of the deposited data

How the results depend on the processing

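The 7 sites at Esrrb, and the 3 SOX2 sites called in both SOX2 libraries, stayed within 1.5 times their counts under every alternative that gave a value; the SOX2 count of both libraries has no value without a SOX2 library. Several alternatives could not change a count at Esrrb, and none of them did. The smallest −log10 q-value at the locus was 5.56, above the limit of 5 and the common limit of 2.76. No peak lay between 35.5 kb and 249 kb from the gene. Any overlap with the window, or 50 kb either side, therefore kept the same peaks. The overlaps that joined the sites were at least 73.8% of the shorter peak, above the 50% asked. When sites were built from summits within 150 bp, there were 10 sites in place of 7. The SOX2 sites of both libraries were then 2 in place of 3, and the SOX2 summits at site 6 lie 215 bp apart. The sites of both factors were 1 in place of 2. The SOX15 sites of at least 2 libraries were 0 in place of 1, because the summits at site 5 lie 182 bp apart. Chains and SOX15 sites flanked by SOX2 sites were not counted again under this setting. Leaving out 1 library gave 2 to 4 SOX15 sites, with 2 without SOX15 replicate 3, and 3 to 5 SOX2 sites, with 3 without SOX2 replicate 2. It gave 1 to 2 sites of both factors, with 1 without SOX15 replicate 1, SOX15 replicate 3 or SOX2 replicate 2, and 0 to 1 SOX15 sites of at least 2 libraries, with 0 without SOX15 replicate 1 or 2. The difference in the share of a list at the locus was 0.195 to 0.582 percentage points without 1 library, lowest without SOX15 replicate 1. It was positive under every alternative run, but a single peak weighs more in the shorter SOX15 lists, so little can be read from the sign. With a SOX15 library left out the exact permutation p was 0.33. No design with a library left out can pass 0.05. With gene bodies alone, 4 of 20 pluripotency genes had a SOX15 site in place of 9, and 8 a SOX2 site in place of 17, against 2.1% and 8.17% of all protein-coding genes. The counts of chains and of flanked SOX15 sites, and their alternatives, were chosen after seeing the data: chains numbered 2 with a gap of 2 kb and 7 with 5 kb in place of 6, and 4 to 6 without 1 SOX15 library. Flanked SOX15 sites numbered 0 without SOX15 replicate 1 or 2, and otherwise 1. No paired analysis was possible because the counts come from peak lists without a fit, and the replicate numbers are not stated to mark a shared culture or day.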
